A study of Mus musculus with 12 samples.

Results

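The genes described here build the extracellular matrix and attach cells to it: the collagen chains, the laminin chains, the integrin subunits, and the genes Serpinh1, Creb3l1, Plod1, Plod3, Lox, Loxl2 and Sparc, which act in making, modifying or binding collagen. They were taken by name from a table of 24421 mouse gene symbols, in which 90 symbols matched, and kept where at least 3 of the 12 libraries held 10 or more counts. This left 49 genes: 6 of the 7 collagen processing genes, 19 of 44 collagen chains, 7 of 11 laminin chains, 9 of 18 integrin alpha subunits and 8 of 10 integrin beta subunits. Of the 41 symbols that were not kept, 8 had no count in any library, Lox among them, and the largest total was 69 counts over the 12 libraries. The smallest total among the 49 genes was 78 counts, and 37 of them had 10 or more counts in every library. A count of 0 in a library allows a level of up to 0.134 to 0.181 CPM (counts scaled to library size), taken as 3 counts of the library and covering counting error only.

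The libraries came from cultured KP cells, which derive from mouse lung adenocarcinoma of the genotype KrasLSL-G12D/+; Trp53flox/flox. The 4 groups of 3 libraries were sgBACH1_siFEM1B (Bach1 knockout by CRISPR/Cas9, siRNA against Fem1b), sgBACH1_siCTRL (Bach1 knockout, control siRNA), sgCTRL_siFEM1B (control guide RNA, siRNA against Fem1b) and sgCTRL_siCTRL (control guide RNA, control siRNA), all 48 h after siRNA transfection. BACH1 is a heme-regulated transcription factor that represses genes with MAF recognition elements, and FEM1B is the substrate receptor of a CUL2 ubiquitin ligase. The labels name 1 knockout line and 1 control line and do not say whether either is a clone, so an effect of the knockout and a difference between the lines cannot be told apart. The replicates are called biological, but whether they came from separate cultures is not stated, so p-values measure the spread between these libraries.

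Collagens are trimers of alpha chains that are hydroxylated and folded in the endoplasmic reticulum (ER), with the help of lysyl hydroxylases and of the procollagen chaperone HSP47, and are crosslinked by lysyl oxidases after secretion. Laminins are trimers of an alpha, a beta and a gamma chain and form the basement membrane under epithelia together with type IV collagen. Integrins are heterodimers of an alpha and a beta subunit that bind these proteins at the cell surface, and in epithelia the integrin of the Itga6 and Itgb4 products holds hemidesmosomes to laminin.

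Total counts per library lay between 16539168 and 22196999. Fem1b was at 46.2 to 54.4 CPM in sgBACH1_siFEM1B and 136 to 141 CPM in sgBACH1_siCTRL, and at 43.0 to 57.9 CPM in sgCTRL_siFEM1B and 157 to 167 CPM in sgCTRL_siCTRL. Bach1 was at 39.3 to 40.5 CPM in sgBACH1_siFEM1B and 37.7 to 44.0 CPM in sgCTRL_siFEM1B, and at 27.6 to 31.0 CPM in sgBACH1_siCTRL and 29.5 to 33.6 CPM in sgCTRL_siCTRL. The libraries of the lines overlapped in both pairs, so counts over Bach1 do not check the knockout, and the labels do not give the edit. Of the epithelial markers, 7 of 8 passed the filter on low counts, with a summed level of 7081 to 9379 CPM, to which keratins contributed most. Epcam was low, with a group mean of at most 1.53 CPM. Of 10 fibroblast markers 1 passed, the list summed to at least 0.318 CPM and stayed below 1.3 CPM, and Tcf21 was at 0. Of 6 alveolar type 2 markers 2 passed, Abca3 with group means of 116 to 129 CPM and Lamp3 with 0.939 to 1.42 CPM. Nkx2-1 and Sftpa1 were at 0 in all libraries, Sftpc had 1 count and Sftpb 28 counts. Leukocyte and endothelial lists each had 1 marker that passed, and Cd3e, Adgre1, Tyrobp and Emcn were at 0. In bulk RNA, fewer cells that express a gene and less RNA of it per cell cannot be told apart.

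Promoter sequences are shown for the genes whose levels set the results apart: Serpinh1 and Itgb7, which had the largest rise and fall between the lines among the 37 genes with 10 counts in every library, and Col4a1 with Col4a2, the most abundant collagen pair. They are RefSeq windows on GRCm38.p6, the assembly that mm10 denotes, from 250 bases before to 50 bases after the annotated start, and 35 of the 49 genes had one. Capitals mark matches on either strand to TGANNNNGC (the core of MAF recognition and antioxidant response elements), TGANTCA (AP-1), GAANNTTC (heat shock element), GGGCGG (GC box) or CCAAT.
Serpinh1, chr7:99353190-99353489, minus strand: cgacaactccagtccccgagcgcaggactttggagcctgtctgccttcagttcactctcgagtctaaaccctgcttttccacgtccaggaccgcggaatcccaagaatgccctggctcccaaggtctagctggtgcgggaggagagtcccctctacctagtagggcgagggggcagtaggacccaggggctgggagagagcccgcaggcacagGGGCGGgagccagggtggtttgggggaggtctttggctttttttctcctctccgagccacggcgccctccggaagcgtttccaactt
Itgb7, chr15:102231886-102232185, minus strand: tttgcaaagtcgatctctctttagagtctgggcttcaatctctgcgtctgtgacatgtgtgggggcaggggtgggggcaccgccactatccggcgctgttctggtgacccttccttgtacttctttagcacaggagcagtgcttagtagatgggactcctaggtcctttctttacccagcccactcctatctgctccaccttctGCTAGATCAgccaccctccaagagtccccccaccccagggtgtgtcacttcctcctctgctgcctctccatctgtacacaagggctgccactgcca
Col4a1, chr8:11312777-11313076, minus strand: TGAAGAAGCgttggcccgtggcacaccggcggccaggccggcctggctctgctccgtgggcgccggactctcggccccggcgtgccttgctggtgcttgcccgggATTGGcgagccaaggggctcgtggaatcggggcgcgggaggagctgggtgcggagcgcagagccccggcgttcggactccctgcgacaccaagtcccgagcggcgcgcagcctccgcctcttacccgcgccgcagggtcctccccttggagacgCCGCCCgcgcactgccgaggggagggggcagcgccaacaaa
Col4a2, chr8:11312555-11312854, plus strand: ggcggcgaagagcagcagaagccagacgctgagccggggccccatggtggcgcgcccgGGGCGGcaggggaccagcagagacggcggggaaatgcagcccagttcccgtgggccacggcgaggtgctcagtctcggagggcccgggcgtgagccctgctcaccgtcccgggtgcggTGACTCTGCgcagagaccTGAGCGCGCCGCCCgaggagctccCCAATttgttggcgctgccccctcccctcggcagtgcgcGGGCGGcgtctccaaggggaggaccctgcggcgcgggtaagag

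The Serpinh1 window held 1 GC box and no match to the other 4 motifs, which says only that these letters are not in these 300 bases. The Itgb7 window held 1 TGANNNNGC match. This window ends at 102232185, while the gene on the minus strand reaches to 102233405. It thus lies inside the gene, at an annotated start that is not the outermost. Col4a1 and Col4a2 are transcribed away from each other, with the start sites of these windows at 11312826 and 11312805 on chromosome 8. Their windows share 78 bases (chr8:11312777-11312854), and transcripts from these starts overlap by 22 bases. The Col4a1 gene on the minus strand reaches to 11312889, so its window is not at the outermost start either. In the Col4a2 window there were 2 TGANNNNGC matches, 3 GC boxes, 1 of which overlaps a TGANNNNGC match, and 1 CCAAT box. In the Col4a1 window there was 1 match to each of TGANNNNGC, GGGCGG and CCAAT. Among all 32851 RefSeq promoter windows of the same length, 41.3% held TGANNNNGC, 7.81% TGANTCA, 7.86% GAANNTTC, 35.7% GGGCGG and 37.4% CCAAT, so single matches to the frequent motifs are common.

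Measured as CPM per kilobase of exon, averaged over the 12 libraries, Itgb1, the beta subunit shared by most matrix-binding integrins, had the highest level of the 49 genes at 307. It was followed by Sparc at 151, Itga3 at 148 and Lama5 at 129. The basement membrane collagens followed, with Col4a1 at 108, Col4a2 at 102 and Col18a1 at 94.3. The fibrillar chains Col1a1 and Col1a2 were far lower on this scale, at 2.22 and 0.0438. As sums of CPM, the 19 collagen chains reached 2538 to 2582 in sgBACH1_siFEM1B, 2557 to 2669 in sgBACH1_siCTRL, 2854 to 3141 in sgCTRL_siFEM1B and 2824 to 2981 in sgCTRL_siCTRL. In this sum every sgBACH1 library was thus below every sgCTRL library. Col4a1, Col4a2 and Col18a1 made up most of it, at 802, 675 and 662 CPM of a mean sum of 2786 CPM over the 12 libraries. The laminin sums overlapped between the lines, at 2333 to 2677, 2389 to 2587, 2565 to 2832 and 2225 to 2439 CPM in the same order of groups.

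**Figure D1:**
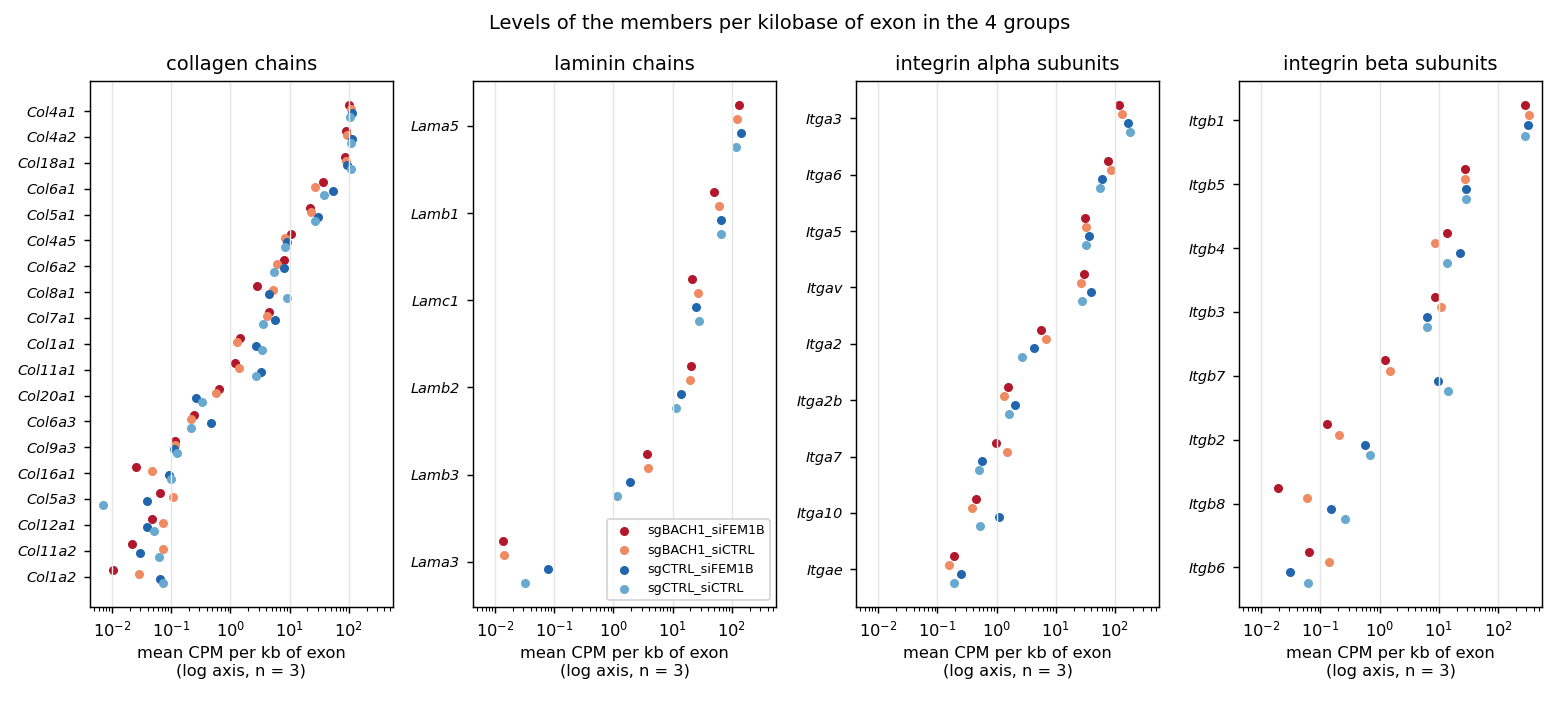
Mean level of collagen chains, laminin chains and integrin subunits in CPM per kilobase of exon (x axis, log scale) in the 4 groups of 3 libraries, with genes ordered by their level. Col4a1 and Col4a2 lie close together in all groups near 100, while the Itgb7 points of the 2 sgBACH1 groups lie left of those of the 2 sgCTRL groups.

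Differences were tested with edgeR's quasi-likelihood test (two-sided, n = 3 per group) across the 13281 genes that passed the filter. Genes are called where the p adjusted by Benjamini and Hochberg's method over all of them was under 0.05, and a log2 fold change is followed by its standard error. Between the lines under control siRNA (sgBACH1_siCTRL against sgCTRL_siCTRL), 13 of the 49 genes were higher and 18 lower in the knockout line, which is 31 called, beside 50.5% of all genes called (24.2% higher, 26.3% lower). Under siFEM1B (sgBACH1_siFEM1B against sgCTRL_siFEM1B), 11 were higher and 27 lower, beside 54.6% of all genes called (28.2% higher, 26.4% lower). Of the 49 genes, 12 had fewer than 10 counts in at least 1 library, and some of these passed the filter through the groups in which they were high. Among the 37 genes with 10 counts in every library, 10 were higher and 15 lower under control siRNA, and 10 higher and 22 lower under siFEM1B. The median log2 fold change of the 49 genes was -0.06 under control siRNA and -0.33 under siFEM1B, beside -0.02 and 0.01 over all genes. Under both siRNAs, 10 genes were higher and 17 lower in the knockout line. The share of all genes called alike under both siRNAs was not counted. Whether these 10 and 17 genes are more than among other genes was therefore not tested. Without regard to the test, the libraries of the compared groups did not overlap for 32 of the 49 genes under control siRNA and 38 under siFEM1B, beside 60.3% and 57% of all genes. The split under control siRNA depended on the processing. It was 15 higher and 14 lower with DESeq2 size factors. With the median of each chromosome removed, tested by limma on log2 CPM, it was 13 higher and 12 lower.

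**Figure D2:**
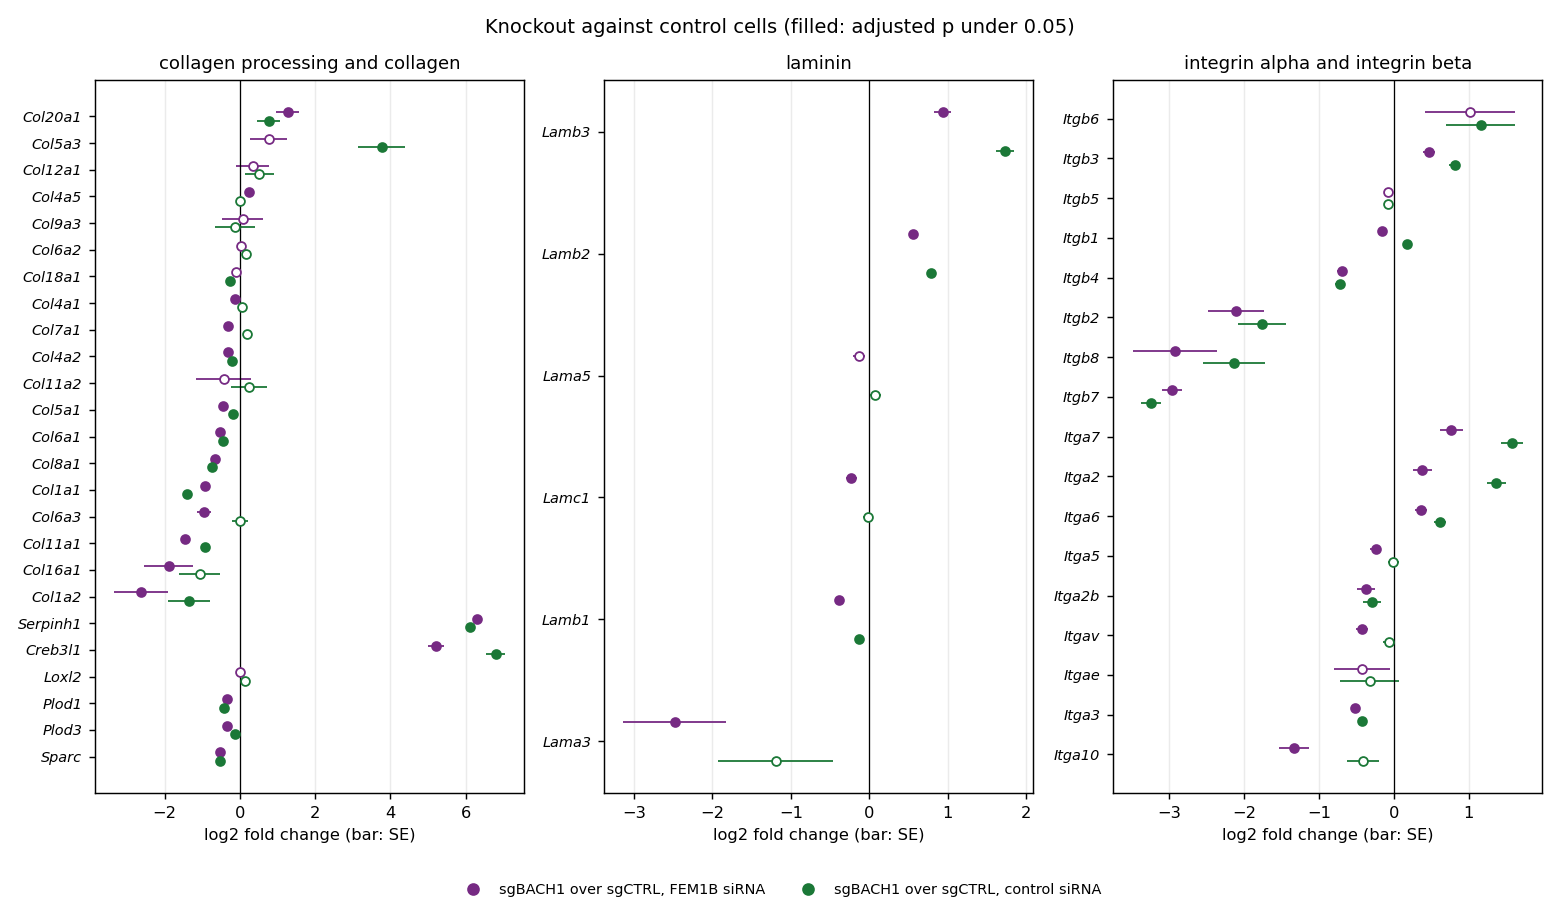
Log2 fold change of the collagen processing, collagen, laminin and integrin genes between sgBACH1 and sgCTRL cells (x axis; the scale differs between panels) under siFEM1B and control siRNA, with the standard error as a bar and filled points at adjusted p under 0.05. Serpinh1 and Creb3l1 stand to the right of all other genes, and Itgb7 lies to the left of most.

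Genes of the same chromosome tended to differ together between the lines. The SD of the 20 chromosome medians of log2 fold change was 0.169 between sgBACH1_siCTRL and sgCTRL_siCTRL, against 0.0240 between sgCTRL_siFEM1B and sgCTRL_siCTRL. Values with those medians removed are given beside several of the genes. They were computed on log2 CPM with a prior count of 2 and tested with limma in place of edgeR. A shift in value or call can therefore also come from that change, which was not tested by itself.

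Among the collagen processing genes, Serpinh1 showed the largest difference in level. It encodes HSP47, the ER chaperone that binds folded procollagen, and lies at chr7:99345375-99353239. It had 244, 226 and 234 CPM in sgBACH1_siFEM1B, 231, 239.5 and 225 CPM in sgBACH1_siCTRL, 3.48, 2.49 and 2.93 CPM in sgCTRL_siFEM1B and 3.50, 3.77 and 2.76 CPM in sgCTRL_siCTRL. All sgBACH1 libraries stood far above all sgCTRL libraries, and within each line the libraries with and without siFEM1B overlapped. The log2 fold change was 6.11 ± 0.09 under control siRNA (adjusted p = 1.13e-20) and 6.30 ± 0.09 under siFEM1B (adjusted p = 9.56e-21). From summed counts, 14072 against 212 under control siRNA, the ratio was 69.1 (95% interval 60.3 to 79.5, counting error only).

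Creb3l1 (chr2:91982328-92024170), which encodes an ER-membrane transcription factor that is released by cleavage and drives type I collagen in mouse bone, was the other gene nearly restricted to the knockout line. It had 17.5, 16.2 and 18.0 CPM in sgBACH1_siFEM1B, 21.7, 18.0 and 20.5 CPM in sgBACH1_siCTRL, 0.669, 0.293 and 0.379 CPM in sgCTRL_siFEM1B and 0.273, 0.0471 and 0.201 CPM in sgCTRL_siCTRL. The lines did not overlap. Creb3l1 held 10 or more counts in every sgBACH1 library, but in 1 library of sgCTRL_siFEM1B and 0 of sgCTRL_siCTRL. It passed the filter through the groups in which it was high, so the ratios describe levels and are no separate support. The summed counts were 1217 against 11 under control siRNA, a ratio of 115 (95% interval 64.1 to 231, counting error only). Under siFEM1B they were 959 against 28, a ratio of 37.7 (25.9 to 57.1). In sgCTRL cells, Creb3l1 was called higher with siFEM1B (1.36 ± 0.49, adjusted p = 0.0310), which rests on these few counts. The call ended without replicate 1 of sgCTRL_siFEM1B (0.92, adjusted p = 0.202) and without replicate 2 (0.92, adjusted p = 0.143) or replicate 3 (1.46, adjusted p = 0.0539) of sgCTRL_siCTRL. Col1a1, whose transcription this factor drives in bone, was lower in the knockout line, as described with the collagens.

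Sparc and the lysyl hydroxylase gene Plod1 were lower in the knockout line, and Plod3 was lower under siFEM1B. Sparc (chr11:55394159-55420080), a secreted glycoprotein that binds collagen, had 438, 453 and 455 CPM in sgBACH1_siFEM1B, 489.8, 479 and 489 CPM in sgBACH1_siCTRL, 666, 645 and 649 CPM in sgCTRL_siFEM1B and 694, 699.9 and 709 CPM in sgCTRL_siCTRL. The lines did not overlap, and Sparc was 1.44-fold lower under control siRNA (-0.53 ± 0.04, adjusted p = 5.12e-09) and 1.46-fold lower under siFEM1B (-0.54 ± 0.04, adjusted p = 3.89e-09). Plod1 (chr4:147909753-147936776), which hydroxylates lysines of collagen helices, had 53.5, 47.4 and 55.2 CPM in sgBACH1_siFEM1B, 43.8, 43.8 and 42.0 CPM in sgBACH1_siCTRL, 71.7, 64.2 and 61.5 CPM in sgCTRL_siFEM1B and 58.0, 61.5 and 53.7 CPM in sgCTRL_siCTRL. It was lower in the knockout line (-0.42 ± 0.07, adjusted p = 1.00e-04 under control siRNA, and -0.34 ± 0.07, adjusted p = 0.000661 under siFEM1B). With siFEM1B it was higher in sgBACH1 cells (0.27 ± 0.08, adjusted p = 0.00764).

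Plod3 (chr5:136987019-136996646), a lysyl hydroxylase that also adds sugars to collagen, had 146, 147 and 141 CPM in sgBACH1_siFEM1B, 167, 166 and 155 CPM in sgBACH1_siCTRL, 181, 184 and 191 CPM in sgCTRL_siFEM1B and 184, 174 and 175 CPM in sgCTRL_siCTRL. It was lower in the knockout line under siFEM1B (-0.36 ± 0.05, adjusted p = 6.84e-06). Under control siRNA the value was small (-0.13 ± 0.05, adjusted p = 0.0412), and the call ended without replicate 1 of sgBACH1_siFEM1B, replicate 2 or 3 of sgBACH1_siCTRL or any 1 of the 6 sgCTRL libraries (adjusted p between 0.0526 and 0.196), and under each of the other alternatives (0.0507 to 0.0929). Its exons overlap those of Znhit1 on the other strand over 11.7% of their length, and the strand setting of the counting is not given in the sources used here, so its level is uncertain. Loxl2 (chr14:69608692-69695834), a lysyl oxidase-like crosslinking enzyme, had 118, 132 and 116 CPM in sgBACH1_siFEM1B, 136, 134 and 135 CPM in sgBACH1_siCTRL, 127, 122 and 120.4 CPM in sgCTRL_siFEM1B and 120.4, 122 and 128 CPM in sgCTRL_siCTRL. It was not called in any comparison, but with DESeq2 size factors it was called higher in the knockout line under control siRNA (0.14, adjusted p = 0.0456). With the chromosome medians removed it was called lower under siFEM1B, at -0.25 (adjusted p = 0.000862), and stood at -0.12 under control siRNA (adjusted p = 0.0882).

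**Figure D3:**
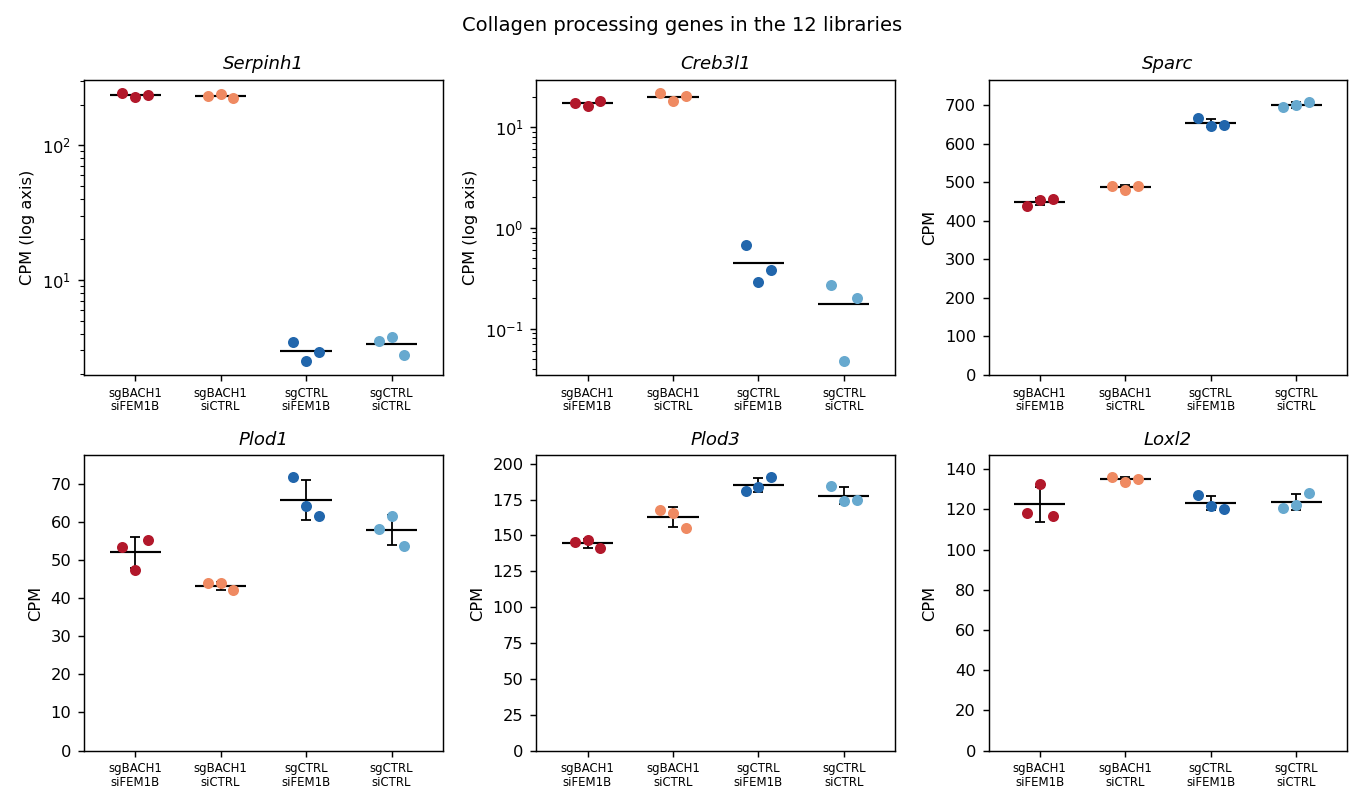
CPM of the 6 collagen processing genes in each of the 12 libraries (y axis; a log scale for Serpinh1 and Creb3l1, from 0 for the others), with the mean of 3 libraries as a line and the SD as a bar on the linear panels. Serpinh1 and Creb3l1 are high in the sgBACH1 libraries, and Sparc is lower there, at 438 to 489.8 CPM against 645 to 709 CPM in sgCTRL libraries.

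Other genes of collagen production also differed between the lines. Of 16 tested genes for collagen modification and folding, 9 were higher and 2 lower under control siRNA, and 8 higher and 4 lower under siFEM1B, with a median log2 fold change of 0.41 and 0.35. Over all genes, 24.2% were higher and 26.3% lower under control siRNA, and 28.2% higher and 26.4% lower under siFEM1B, with medians of -0.02 and 0.01. Plod2, the lysyl hydroxylase of collagen telopeptides, averaged 197 CPM in sgBACH1_siCTRL and 92.7 CPM in sgCTRL_siCTRL (1.09 ± 0.08, adjusted p = 8.89e-10). P4ha3, a prolyl hydroxylase subunit, averaged 8.49 and 2.53 CPM in these groups (1.74 ± 0.17, adjusted p = 4.74e-08), and Rcn3, an ER protein of collagen production, 28.9 and 10.6 CPM (1.44 ± 0.14, adjusted p = 5.52e-08). Of 9 tested genes for propeptide removal and crosslinking, 4 were higher and 4 lower under control siRNA, and 2 higher and 3 lower under siFEM1B. Pcolce, which enhances removal of the procollagen C-propeptide, averaged 68.1 CPM in sgBACH1_siCTRL and 325 CPM in sgCTRL_siCTRL (-2.26 ± 0.06, adjusted p = 1.19e-16), while Bmp1, the protease that removes it, averaged 71.7 and 51.1 CPM (0.49 ± 0.06, adjusted p = 8.82e-07). Tgm2, a crosslinking transglutaminase, averaged 5.52 and 17.4 CPM (-1.66 ± 0.16, adjusted p = 2.69e-08). Of 13 genes for collagen export from the ER, 4 were higher and 5 lower under control siRNA, and 2 higher and 6 lower under siFEM1B. Of the 6 tested genes of the CREB3 family and its proteases, 1 was higher and 4 lower under control siRNA, and 1 higher and 1 lower under siFEM1B. Creb3l2, the close relative of Creb3l1, averaged 21.7 and 30.4 CPM in sgBACH1_siCTRL and sgCTRL_siCTRL (-0.49 ± 0.09, adjusted p = 0.000150).

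Of the 19 collagen chains, 2 were higher and 8 lower in the knockout line under control siRNA, beside 24.2% and 26.3% of all genes. Under siFEM1B the counts were 2 higher and 11 lower, beside 28.2% and 26.4%. The lower chains include Col1a2 under both siRNAs and Col16a1 under siFEM1B, and the higher ones Col5a3 under control siRNA. These passed the filter mainly through groups in which they were high, so their calls are no separate support. With the chromosome medians removed the split was 3 higher and 5 lower under control siRNA, and 2 higher and 11 lower under siFEM1B. Whether collagens differ in this from other genes was not tested. Col1a1 (chr11:94936224-94953042), the main chain of fibrillar type I collagen, had 10.2, 8.85 and 9.41 CPM in sgBACH1_siFEM1B, 9.42, 7.63 and 8.13 CPM in sgBACH1_siCTRL, 17.7, 19.2 and 17.3 CPM in sgCTRL_siFEM1B and 21.4, 22.5 and 23.5 CPM in sgCTRL_siCTRL. No sgBACH1 library reached an sgCTRL library, and Col1a1 was 2.68-fold lower under control siRNA (-1.42 ± 0.10, adjusted p = 5.34e-10) and 1.90-fold lower under siFEM1B (-0.93 ± 0.10, adjusted p = 3.04e-07). Its partner chain Col1a2 (chr6:4505618-4541543) was near the detection limit in every group, at 0.0540 to 0.241 CPM in sgBACH1_siFEM1B, 0.0924 to 0.549 CPM in sgBACH1_siCTRL, 0.271 to 1.32 CPM in sgCTRL_siFEM1B and 0.612 to 1.27 CPM in sgCTRL_siCTRL. Of the 6 libraries in which it had 10 or more counts, 5 were sgCTRL libraries, so that it passed the filter through the groups in which it was higher, and its calls in the knockout line are no separate support.

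Col11a1 (chr3:114030479-114220756), a minor chain of fibrils, had 13.8, 18.0 and 13.5 CPM in sgBACH1_siFEM1B, 19.4, 15.1 and 19.4 CPM in sgBACH1_siCTRL, 38.6, 41.6 and 43.9 CPM in sgCTRL_siFEM1B and 32.9, 34.7 and 35.3 CPM in sgCTRL_siCTRL. It was lower in the knockout line under control siRNA (-0.93 ± 0.11, adjusted p = 3.66e-07) and under siFEM1B (-1.45 ± 0.11, adjusted p = 9.00e-10), with no overlap between the lines. Col5a1 (chr2:27886381-28039510), a chain of the fibril core, averaged 189 ± 12.6 CPM in sgBACH1_siFEM1B and 257 ± 16.5 CPM in sgCTRL_siFEM1B (SD, n = 3 each; -0.45 ± 0.06, adjusted p = 1.83e-06). Under control siRNA its difference was smaller (-0.18 ± 0.06, adjusted p = 0.0117), and the call ended without replicate 3 of sgCTRL_siCTRL (-0.16, adjusted p = 0.0537) and with the chromosome medians removed (-0.07, adjusted p = 0.343). In sgCTRL cells, siFEM1B raised Col5a1 (0.20 ± 0.06, adjusted p = 0.00695). Col5a3 (chr9:20770050-20815117) was barely detected, with 25 counts summed over sgBACH1_siFEM1B, 44 over sgBACH1_siCTRL, 16 over sgCTRL_siFEM1B and 3 over sgCTRL_siCTRL. Only in sgBACH1_siCTRL did every library hold 10 or more counts, so that the gene passed the filter through the group in which it was highest. The 44 counts against 3 gave a ratio of 15.3 (95% interval 4.89 to 76.9, counting error only).

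Col8a1 (chr16:57624256-57754737), a short-chain collagen of network type, was the only one of the 49 genes called lower in all 4 comparisons between groups. It had 21.4, 23.1 and 21.5 CPM in sgBACH1_siFEM1B, 40.0, 39.4 and 45.2 CPM in sgBACH1_siCTRL, 33.3, 38.8 and 32.7 CPM in sgCTRL_siFEM1B and 64.3, 73.1 and 71.7 CPM in sgCTRL_siCTRL. The lowest values were in the group with both the knockout and the siRNA, and the highest in the group with neither. The knockout line was lower by -0.74 ± 0.08 under control siRNA (adjusted p = 1.35e-07) and -0.67 ± 0.09 under siFEM1B (adjusted p = 1.83e-06), and siFEM1B lowered it by -0.99 ± 0.08 in sgCTRL cells (adjusted p = 8.93e-09) and -0.92 ± 0.08 in sgBACH1 cells (adjusted p = 8.41e-08). The siRNA effects of the lines differed by 0.08 (95% interval -0.19 to 0.34, adjusted p = 0.745).

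Of the type VI collagens, which form beaded filaments near basement membranes, Col6a1 and Col6a2 rose with siFEM1B in both lines and Col6a3 in sgCTRL cells. Col6a1 (chr10:76708792-76726044) had 159, 163 and 168 CPM in sgBACH1_siFEM1B, 123, 119.9 and 117 CPM in sgBACH1_siCTRL, 238, 248 and 225 CPM in sgCTRL_siFEM1B and 162, 165 and 168 CPM in sgCTRL_siCTRL. Neither siRNA comparison had overlapping libraries, and siFEM1B raised Col6a1 1.36-fold in sgBACH1 cells (0.45 ± 0.05, adjusted p = 1.15e-06) and 1.44-fold in sgCTRL cells (0.52 ± 0.05, adjusted p = 9.61e-08). The knockout line was lower, by -0.54 ± 0.05 under siFEM1B (adjusted p = 2.93e-08) and -0.46 ± 0.05 under control siRNA (adjusted p = 3.00e-07), and the libraries of sgBACH1_siFEM1B and sgCTRL_siCTRL overlapped. Col6a2 (chr10:76595756-76623630) had 71.9, 63.7 and 69.5 CPM in sgBACH1_siFEM1B, 50.4, 54.0 and 48.0 CPM in sgBACH1_siCTRL, 68.1, 71.3 and 60.6 CPM in sgCTRL_siFEM1B and 41.5, 46.1 and 48.3 CPM in sgCTRL_siCTRL. The siRNA raised it in sgBACH1 cells (0.43 ± 0.08, adjusted p = 0.000146) and in sgCTRL cells (0.56 ± 0.08, adjusted p = 6.98e-06), and the lines were not called different under either siRNA. Col6a3 (chr1:90766860-90844001) had 2.91, 2.75 and 3.14 CPM in sgBACH1_siFEM1B, 3.05, 2.04 and 2.77 CPM in sgBACH1_siCTRL, 5.66, 5.95 and 5.42 CPM in sgCTRL_siFEM1B and 2.32, 3.25 and 2.31 CPM in sgCTRL_siCTRL. The sgCTRL_siFEM1B libraries stood apart, with a rise in sgCTRL cells (1.11 ± 0.19, adjusted p = 7.13e-05) and no call in sgBACH1 cells (0.16 ± 0.20, adjusted p = 0.563).

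The basement membrane collagens changed little. Col4a1 (chr8:11198423-11312889) had 753, 770.3 and 770.4 CPM in sgBACH1_siFEM1B, 832, 789 and 828 CPM in sgBACH1_siCTRL, 859.5, 850.0 and 826 CPM in sgCTRL_siFEM1B and 750.4, 796 and 804 CPM in sgCTRL_siCTRL. Col4a2 (chr8:11312805-11449287), which shares the promoter region shown above, had 577, 620.1 and 614 CPM in sgBACH1_siFEM1B, 637, 588 and 632 CPM in sgBACH1_siCTRL, 794, 787 and 696 CPM in sgCTRL_siFEM1B and 680.5, 735 and 741 CPM in sgCTRL_siCTRL. Under siFEM1B both were lower in the knockout line, Col4a2 by -0.33 ± 0.06 (adjusted p = 7.62e-05) and Col4a1 by -0.14 ± 0.05 (adjusted p = 0.0132). The Col4a1 call ended without replicate 1 of sgBACH1_siFEM1B (-0.13, adjusted p = 0.0535) and with the chromosome medians removed (-0.10, adjusted p = 0.0797). Under control siRNA, Col4a1 was not called (0.06 ± 0.05, adjusted p = 0.312) and Col4a2 was lower (-0.22 ± 0.06, adjusted p = 0.00404). With the chromosome medians removed, Col4a2 was at -0.14 (adjusted p = 0.0680) and Col4a1 was called higher at 0.14 (adjusted p = 0.0211). Whether the chains of the pair differ from each other in response was not tested.

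Col7a1 (chr9:108953586-108984875), the anchoring fibril collagen of epithelia, had 48.6, 47.4 and 44.9 CPM in sgBACH1_siFEM1B, 46.3, 37.1 and 43.4 CPM in sgBACH1_siCTRL, 55.8, 60.1 and 61.4 CPM in sgCTRL_siFEM1B and 35.9, 36.2 and 39.6 CPM in sgCTRL_siCTRL. The siRNA raised it 1.59-fold in sgCTRL cells, without overlap (0.67 ± 0.08, adjusted p = 1.01e-06), and was not called in sgBACH1 cells (0.15 ± 0.08, adjusted p = 0.122). The difference between these effects was called (-0.51 ± 0.11, adjusted p = 0.0106). Under siFEM1B the knockout line was lower (-0.33 ± 0.08, adjusted p = 0.00119), a value that was -0.61 with the chromosome medians removed. Col18a1 (chr10:77052178-77166530), the source of the fragment endostatin, averaged 633 ± 20.6 CPM in sgBACH1_siCTRL and 757 ± 6.91 CPM in sgCTRL_siCTRL (-0.26 ± 0.06, adjusted p = 0.000600). Col20a1 (chr2:180983323-181017545), a low-level collagen, had 3.39, 2.81 and 3.80 CPM in sgBACH1_siFEM1B, 1.74, 3.34 and 3.60 CPM in sgBACH1_siCTRL, 1.47, 1.66 and 0.976 CPM in sgCTRL_siFEM1B and 1.18, 1.37 and 2.61 CPM in sgCTRL_siCTRL. It was higher in the knockout line under siFEM1B (1.27 ± 0.31, adjusted p = 0.00203). Under control siRNA the value was 0.77 ± 0.31 (adjusted p = 0.0414), and the call ended without replicate 2 (0.66, adjusted p = 0.127) or 3 (0.58, adjusted p = 0.186) of sgBACH1_siCTRL or replicate 1 (0.56, adjusted p = 0.177) or 2 (0.63, adjusted p = 0.145) of sgCTRL_siCTRL, and moved to 1.19 without replicate 3 of sgCTRL_siCTRL. Col12a1, Col9a3, Col16a1 and Col11a2 had group means of at most 1.13, 0.494, 0.662 and 0.508 CPM. Col4a5, another type IV chain, averaged 71.8 CPM in sgBACH1_siFEM1B and 56.5 CPM in sgBACH1_siCTRL and was higher with siFEM1B in sgBACH1 cells (0.34 ± 0.08, adjusted p = 0.00179).

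The laminins split by chain. Lamb3, a beta chain of epithelial basement membrane laminin, and Lamb2 were higher in the knockout line, and Lamb1 was lower under siFEM1B. In all, 3 of 7 laminin chains were higher and 1 lower under control siRNA, beside 24.2% and 26.3% of all genes. Under siFEM1B, 3 were higher and 3 lower, beside 28.2% and 26.4% of all genes. The lower chains include Lama3, which passed the filter through sgCTRL_siFEM1B, so its call is no separate support. Lamb3 (chr1:193294353-193343878) had 24.7, 25.5 and 22.1 CPM in sgBACH1_siFEM1B, 26.6, 23.8 and 24.6 CPM in sgBACH1_siCTRL, 13.1, 13.8 and 10.7 CPM in sgCTRL_siFEM1B and 8.14, 6.40 and 8.07 CPM in sgCTRL_siCTRL. The lines did not overlap, and Lamb3 was 3.31-fold higher in the knockout line under control siRNA (1.73 ± 0.12, adjusted p = 1.60e-10) and 1.92-fold higher under siFEM1B (0.94 ± 0.11, adjusted p = 5.65e-07). The siRNA raised it in sgCTRL cells (0.74 ± 0.12, adjusted p = 5.67e-05) but was not called in sgBACH1 cells (-0.05 ± 0.10, adjusted p = 0.729), and the interaction, the siRNA effect in sgBACH1 minus that in sgCTRL cells, was -0.79 ± 0.16 (adjusted p = 0.00715).

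Lama3 (chr18:12333417-12583013), a laminin alpha chain of epithelia, was near the detection limit, at 0.0485 to 0.216 CPM in sgBACH1_siFEM1B, 0 to 0.316 CPM in sgBACH1_siCTRL, 0.758 to 0.922 CPM in sgCTRL_siFEM1B and 0.0942 to 0.545 CPM in sgCTRL_siCTRL. It passed the filter through sgCTRL_siFEM1B, the single group in which every library held 10 or more counts, so that a difference between that group and the others follows from the choice and is given as levels.

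Lamb2 (chr9:108479847-108490530) had 129, 122 and 119 CPM in sgBACH1_siFEM1B, 121, 121 and 120.3 CPM in sgBACH1_siCTRL, 82.1, 84.1 and 85.2 CPM in sgCTRL_siFEM1B and 70.3, 70.9 and 68.2 CPM in sgCTRL_siCTRL. It was higher in the knockout line, by 0.79 ± 0.05 under control siRNA (adjusted p = 1.36e-10) and by 0.56 ± 0.05 under siFEM1B (adjusted p = 2.48e-08), with values of 0.51 and 0.27 when the chromosome medians were removed. Lama5, Lamb1 and Lamc1 encode the common laminin of adult epithelial basement membranes. Lama5 (chr2:180176373-180225904) had 1353, 1671 and 1416 CPM in sgBACH1_siFEM1B, 1478, 1318 and 1452 CPM in sgBACH1_siCTRL, 1458, 1722 and 1690.0 CPM in sgCTRL_siFEM1B and 1263, 1359 and 1403 CPM in sgCTRL_siCTRL. It was called in 1 comparison, higher with siFEM1B in sgCTRL cells (0.27 ± 0.08, adjusted p = 0.00543). Lamb1 (chr12:31265146-31329644) had 491, 506 and 469.7 CPM in sgBACH1_siFEM1B, 613, 592 and 573 CPM in sgBACH1_siCTRL, 638, 664 and 621 CPM in sgCTRL_siFEM1B and 614, 673 and 655 CPM in sgCTRL_siCTRL. It was lower in the knockout line under siFEM1B (-0.39 ± 0.05, adjusted p = 2.67e-06), which was -0.13 with the chromosome medians removed (adjusted p = 0.0415), and siFEM1B lowered it in sgBACH1 cells (-0.28 ± 0.05, adjusted p = 0.000238). Its call under control siRNA (-0.13) ended without any 1 of 8 libraries, replicate 1 of sgBACH1_siFEM1B, replicates 2 and 3 of sgBACH1_siCTRL, all of sgCTRL_siFEM1B and replicates 2 and 3 of sgCTRL_siCTRL (adjusted p between 0.0559 and 0.172), and the sign turned with the chromosome medians removed (0.11, adjusted p = 0.0861). Lamc1 (chr1:153218922-153332786) had 174, 184 and 176 CPM in sgBACH1_siFEM1B, 236, 216 and 226 CPM in sgBACH1_siCTRL, 229, 206 and 190.1 CPM in sgCTRL_siFEM1B and 207, 238 and 240.2 CPM in sgCTRL_siCTRL. It fell with siFEM1B in sgBACH1 cells (-0.35 ± 0.07, adjusted p = 0.000377), while in sgCTRL cells the value was -0.13 ± 0.07 (adjusted p = 0.118). The interaction for Lamc1 was not called (-0.21 ± 0.10, adjusted p = 0.181).

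The integrin alpha subunits that were higher in the knockout line were Itga2, Itga6 and Itga7, and Itga3 was lower. Of 9 subunits, 3 were higher and 2 lower under control siRNA, beside 24.2% and 26.3% of all genes. Under siFEM1B, 3 were higher and 5 lower, beside 28.2% and 26.4% of all genes. Itga2 (chr13:114833081-114932100), which pairs with Itgb1 as a collagen receptor, had 41.7, 41.4 and 37.0 CPM in sgBACH1_siFEM1B, 49.1, 45.0 and 52.1 CPM in sgBACH1_siCTRL, 37.7, 31.3 and 23.1 CPM in sgCTRL_siFEM1B and 17.0, 18.2 and 21.6 CPM in sgCTRL_siCTRL. Replicate 1 of sgCTRL_siFEM1B reached into the range of sgBACH1_siFEM1B. Itga2 was 2.58-fold higher in the knockout line under control siRNA (1.37 ± 0.13, adjusted p = 2.23e-08) and 1.30-fold higher under siFEM1B (0.38 ± 0.12, adjusted p = 0.0131), and this second call ended without replicate 3 of sgCTRL_siFEM1B (0.20, adjusted p = 0.0951). The siRNA raised it in sgCTRL cells (0.71 ± 0.13, adjusted p = 0.000173) and the value in sgBACH1 cells was -0.28 ± 0.12 (adjusted p = 0.0668), an interaction of -0.99 ± 0.18 (adjusted p = 0.00309).

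Itga6 (chr2:71786886-71858427), a laminin receptor subunit that pairs with Itgb1 or Itgb4, had 687, 703 and 695 CPM in sgBACH1_siFEM1B, 795, 727 and 784 CPM in sgBACH1_siCTRL, 615, 549.6 and 456 CPM in sgCTRL_siFEM1B and 467, 535 and 505 CPM in sgCTRL_siCTRL. It was higher in the knockout line, without overlap, by 0.61 ± 0.08 under control siRNA (adjusted p = 1.58e-06) and 0.36 ± 0.08 under siFEM1B (adjusted p = 0.000512). Itga7 (chr10:128933421-128958286), a laminin receptor subunit best known from muscle, had 7.32, 9.44 and 7.12 CPM in sgBACH1_siFEM1B, 11.9, 13.0 and 11.4 CPM in sgBACH1_siCTRL, 4.10, 5.02 and 4.93 CPM in sgCTRL_siFEM1B and 3.95, 3.72 and 4.46 CPM in sgCTRL_siCTRL. It was 2.98-fold higher in the knockout line under control siRNA (1.58 ± 0.14, adjusted p = 1.84e-08) and 1.70-fold higher under siFEM1B (0.77 ± 0.15, adjusted p = 0.000198), and siFEM1B lowered it in sgBACH1 cells (-0.60 ± 0.13, adjusted p = 0.00131). Itga3 (chr11:95044475-95076844), the abundant laminin receptor partner of Itgb1, had 660.4, 689 and 668 CPM in sgBACH1_siFEM1B, 752, 760.0 and 736 CPM in sgBACH1_siCTRL, 1014, 967 and 895 CPM in sgCTRL_siFEM1B and 993, 1029.7 and 1006 CPM in sgCTRL_siCTRL. The lines did not overlap, and Itga3 was lower in the knockout line by -0.43 ± 0.05 under control siRNA (adjusted p = 5.61e-07) and -0.51 ± 0.05 under siFEM1B (adjusted p = 5.08e-08).

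Itgav (chr2:83722303-83806917), the alpha subunit of vitronectin and TGF-beta binding integrins, had 293, 367 and 304 CPM in sgBACH1_siFEM1B, 296, 275 and 294 CPM in sgBACH1_siCTRL, 431, 464 and 397 CPM in sgCTRL_siFEM1B and 274, 317 and 312 CPM in sgCTRL_siCTRL. The siRNA raised it in sgCTRL cells (0.52 ± 0.08, adjusted p = 1.94e-05), and the knockout line was lower under siFEM1B (-0.42 ± 0.08, adjusted p = 0.000111). Its interaction was not called (-0.36 ± 0.11, adjusted p = 0.05265). Itga10 (chr3:96645584-96664519), a collagen receptor subunit known from cartilage, had 2.38, 2.0 and 2.53 CPM in sgBACH1_siFEM1B, 1.89, 1.90 and 2.22 CPM in sgBACH1_siCTRL, 6.38, 5.56 and 5.42 CPM in sgCTRL_siFEM1B and 2.32, 2.26 and 3.46 CPM in sgCTRL_siCTRL. All sgCTRL_siFEM1B libraries were above all others, with a rise of 1.12 ± 0.19 in sgCTRL cells (adjusted p = 7.76e-05) and a value of 0.20 ± 0.22 in sgBACH1 cells (adjusted p = 0.513). The interaction for Itga10 was not called (-0.92 ± 0.29, adjusted p = 0.0651). Itga5, the fibronectin receptor subunit, averaged 154 to 182 CPM over the groups, and Itga2b, the platelet subunit, 7.24 to 11.1 CPM. Itgae, which binds E-cadherin on leukocytes, had group means of 0.710 to 1.17 CPM and was not called in any comparison.

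Among the beta subunits, 3 of 8 were higher and 4 lower in the knockout line under control siRNA, beside 24.2% and 26.3% of all genes. Under siFEM1B, 1 was higher and 5 lower, beside 28.2% and 26.4% of all genes. These counts include Itgb6 and Itgb8, which held 10 or more counts mainly in the line in which they were higher. Itgb7 (chr15:102215994-102233405), which is known as a leukocyte subunit that pairs with Itga4 or Itgae, fell most. It had 4.02, 2.86 and 3.56 CPM in sgBACH1_siFEM1B, 4.52, 4.64 and 3.23 CPM in sgBACH1_siCTRL, 28.1, 29.1 and 24.3 CPM in sgCTRL_siFEM1B and 37.1, 42.8 and 36.8 CPM in sgCTRL_siCTRL. The lines were far apart, with Itgb7 9.45-fold lower in the knockout line under control siRNA (-3.24 ± 0.13, adjusted p = 7.09e-14) and 7.77-fold lower under siFEM1B (-2.96 ± 0.14, adjusted p = 8.63e-13). In sgCTRL cells siFEM1B lowered it (-0.52 ± 0.11, adjusted p = 0.000504). The leukocyte markers Cd3e, Adgre1 and Tyrobp were at 0 in all 12 libraries, and the leukocyte list summed to 8.57 to 11.2, 5.49 to 6.10, 21.2 to 30.3 and 7.64 to 9.70 CPM in the 4 groups, nearly all of it Cd68. Itgb2 (chr10:77530329-77565708), another leukocyte subunit, was lower in the knockout line as well, with 0.526, 0.648 and 0.693 CPM in sgBACH1_siCTRL and 2.82, 1.60 and 1.96 CPM in sgCTRL_siCTRL (-1.76 ± 0.32, adjusted p = 0.000129). Itgb8 (chr12:119162803-119238276), which with Itgav activates TGF-beta, was at 0.473, 0.499 and 0.970 CPM in sgBACH1_siCTRL and 2.95, 2.73 and 3.01 CPM in sgCTRL_siCTRL (-2.13 ± 0.42, adjusted p = 0.000259). Under siFEM1B, Itgb8 was at 0.0970, 0.540 and 0 CPM in sgBACH1_siFEM1B and 1.61, 2.44 and 0.922 CPM in sgCTRL_siFEM1B (-2.92 ± 0.57, adjusted p = 0.000210). The value moved to -4.81 without replicate 2 of sgBACH1_siFEM1B. Every sgCTRL library held 10 or more counts of Itgb8, but only 1 library of sgBACH1_siFEM1B and 2 of sgBACH1_siCTRL did. It thus passed the filter mainly through the groups in which it was higher, and its calls are no separate support. Itgb6, an epithelial partner of Itgav, had group means of at most 0.984 CPM.

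Itgb4 (chr11:115974725-116008412), the hemidesmosome subunit, was lower in the knockout line and raised by the siRNA. It had 100.1, 91.0 and 102 CPM in sgBACH1_siFEM1B, 61.9, 60.3 and 56.2 CPM in sgBACH1_siCTRL, 170.1, 164 and 139 CPM in sgCTRL_siFEM1B and 95.4, 98.6 and 99.6 CPM in sgCTRL_siCTRL. The knockout line was lower by -0.72 ± 0.07 under control siRNA (adjusted p = 5.93e-08) and -0.69 ± 0.07 under siFEM1B (adjusted p = 6.63e-08), and siFEM1B raised Itgb4 1.64-fold in sgBACH1 cells (0.72 ± 0.07, adjusted p = 2.12e-07) and 1.61-fold in sgCTRL cells (0.69 ± 0.07, adjusted p = 1.50e-07). The interaction was 0.03 (95% interval -0.20 to 0.26). Its partner Itga6, described above, was higher in the knockout line and not called for the siRNA. Itgb3 (chr11:104608000-104670476), the vitronectin receptor subunit, had 47.2, 54.8 and 50.3 CPM in sgBACH1_siFEM1B, 64.1, 63.8 and 66.1 CPM in sgBACH1_siCTRL, 38.8, 37.8 and 33.2 CPM in sgCTRL_siFEM1B and 37.2, 34.1 and 39.1 CPM in sgCTRL_siCTRL. It was higher in the knockout line (0.81 ± 0.07, adjusted p = 2.03e-08 under control siRNA, and 0.47 ± 0.08, adjusted p = 3.20e-05 under siFEM1B). In sgBACH1 cells siFEM1B lowered it (-0.35 ± 0.07, adjusted p = 0.000741), but its interaction was not called (-0.35 ± 0.11, adjusted p = 0.0576).

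Itgb1 (chr8:128685654-128733579) had 1132, 1251 and 1145 CPM in sgBACH1_siFEM1B, 1367, 1278 and 1377 CPM in sgBACH1_siCTRL, 1344, 1332 and 1274 CPM in sgCTRL_siFEM1B and 1138, 1234 and 1177 CPM in sgCTRL_siCTRL. The groups with only the knockout or only the siRNA were high, and the groups with both or neither were low. It was the single gene of the 49 called higher in the knockout line under control siRNA (0.18 ± 0.05, adjusted p = 0.00765) and lower under siFEM1B (-0.16 ± 0.05, adjusted p = 0.0135). The second call ended without replicate 1 (-0.14, adjusted p = 0.0729) or 3 (-0.14, adjusted p = 0.0602) of sgBACH1_siFEM1B and with the chromosome medians removed (-0.12, adjusted p = 0.0742). The siRNA lowered Itgb1 in sgBACH1 cells (-0.19 ± 0.05, adjusted p = 0.00703) and raised it in sgCTRL cells (0.15 ± 0.05, adjusted p = 0.0227). The call in sgCTRL cells ended without replicate 1 (0.13, adjusted p = 0.0886) or 3 (0.15, adjusted p = 0.0619) of sgCTRL_siCTRL. The interaction was -0.34 ± 0.07 (adjusted p = 0.0119). Itgb5, another partner of Itgav, was at 97.8 ± 1.52, 98.8 ± 0.935, 103 ± 2.75 and 104 ± 7.25 CPM in the 4 groups and was not called in any comparison.

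**Figure D4:**
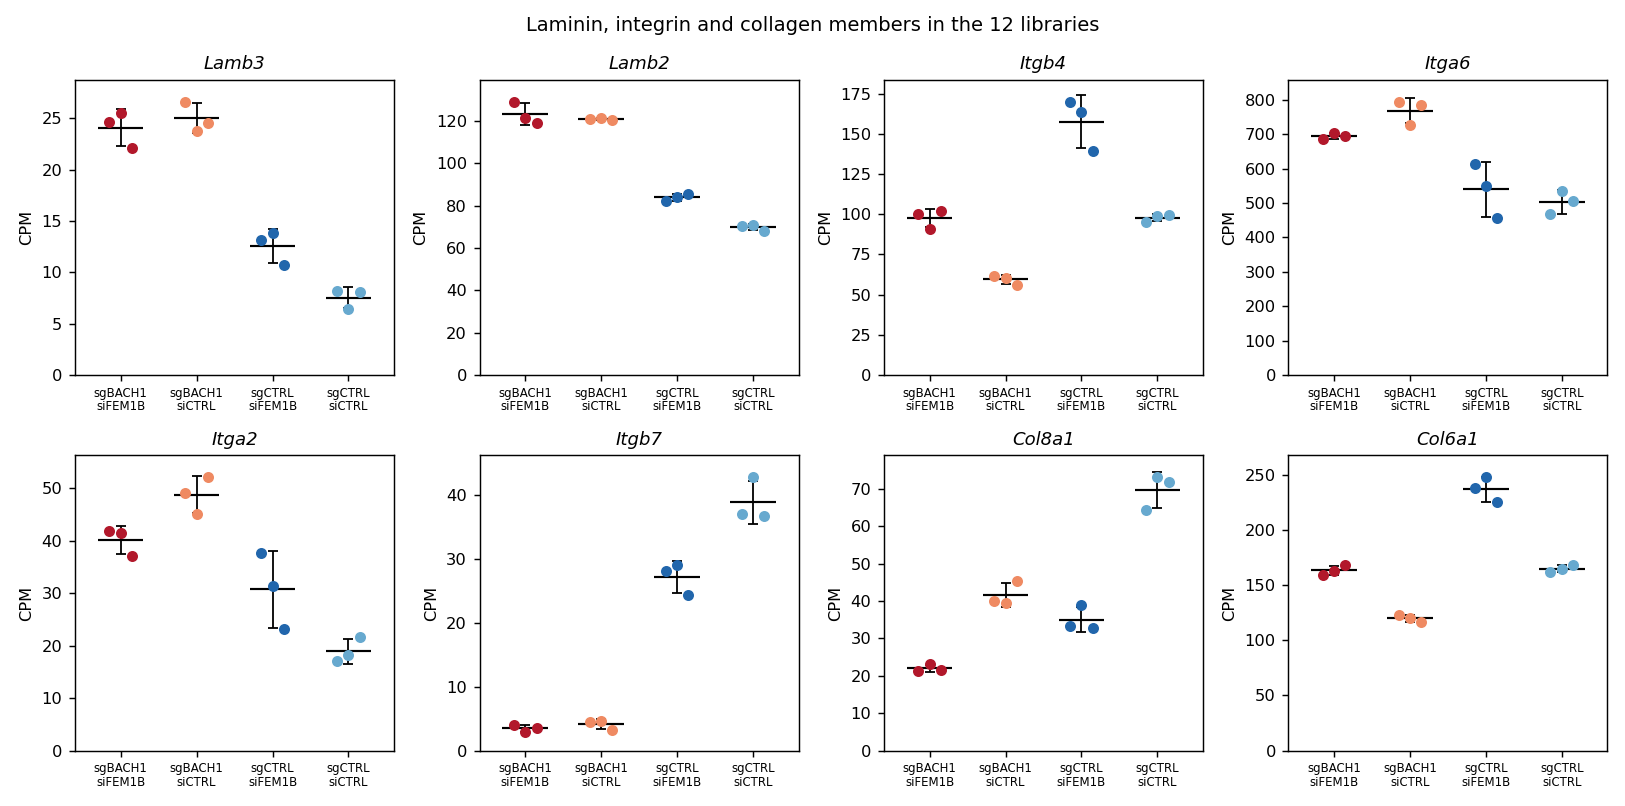
CPM of 8 laminin, integrin and collagen genes in each of the 12 libraries (y axis from 0), with the mean of 3 libraries as a line and the SD as a bar. Lamb3 and Itgb7 separate the lines in opposite directions, Itgb4 and Col6a1 are higher with siFEM1B in both lines, and Col8a1 is lowest in sgBACH1_siFEM1B at 21.4 to 23.1 CPM.

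The siRNA against Fem1b was followed by more rises than falls among these genes in sgCTRL cells, but not in sgBACH1 cells. In sgCTRL cells 20 of the 49 genes were higher and 4 lower with siFEM1B, beside 45% of all genes called (22.1% higher, 22.9% lower), and the median log2 fold change was 0.10, beside 0 over all genes. In sgBACH1 cells 6 were higher and 10 lower, beside 41.7% of all genes called (21.9% higher, 19.8% lower), with a median of -0.07, beside 0.02 over all genes. The libraries of the compared groups did not overlap for 28 genes in sgCTRL cells and 24 in sgBACH1 cells, beside 52.1% and 51.5% of all genes. These comparisons share their groups with those between the lines. Of the 9 integrin alpha subunits, 5 were higher and none lower in sgCTRL cells at the threshold used, against none higher and 2 lower in sgBACH1 cells. Of the 7 laminin chains, 4 were higher and none lower in sgCTRL cells, against 1 higher and 2 lower in sgBACH1 cells. Collagens gave 7 higher and 3 lower of 19 in sgCTRL cells, and 3 higher and 2 lower in sgBACH1 cells. Itgb4, Col6a1, Col6a2 and Plod1 were higher in both lines. Plod1 was the least certain of them, since its call in sgCTRL cells (0.19 ± 0.07, adjusted p = 0.0422) ended without replicate 1 or 3 of sgBACH1_siCTRL, replicate 1 of sgCTRL_siFEM1B, or replicate 1 or 3 of sgCTRL_siCTRL, with adjusted p-values between 0.0514 and 0.189.

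**Figure D5:**
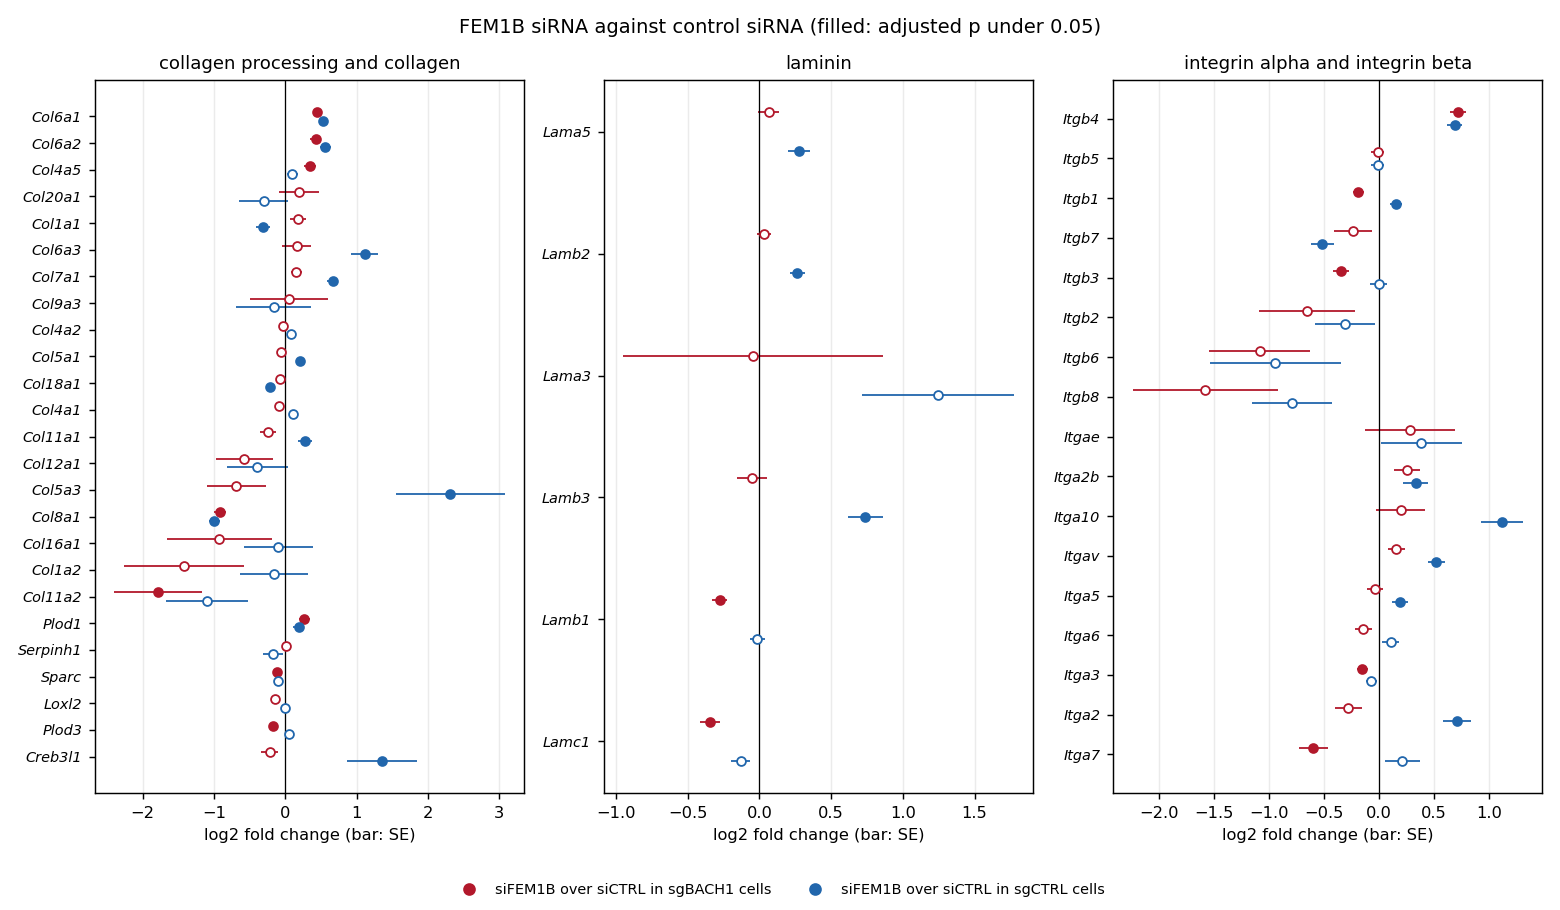
Log2 fold change of the collagen processing, collagen, laminin and integrin genes with siFEM1B over control siRNA (x axis; the scale differs between panels) in sgBACH1 and sgCTRL cells, with the standard error as a bar and filled points at adjusted p under 0.05. For Itgb4, Col6a1 and Col6a2 both points lie right of 0, and for Itga2, Lamb3 and Itga10 the point of sgCTRL cells lies well to the right of that of sgBACH1 cells.

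The difference between the siRNA effects was itself tested. Of the 49 genes, 10 were called (9 of the 37 with 10 counts in every library), all with a lower effect in sgBACH1 than in sgCTRL cells, beside 6.08% of all genes called (3.48% higher, 2.6% lower). The count was 5 to 17 when single libraries were left out, 5 without replicate 1 of sgBACH1_siFEM1B and 17 without replicate 2 of it, among others. By value, 38 of the 49 interactions were below 0, with a median of -0.23 beside 0.02 over all genes. Calls for Itga2, Lamb3, Col7a1 and Itgb1 held without any single library. The calls of Itga7, Lamb1, Col5a3, Col11a1 and Col6a3 did not: they ended without most single libraries. For Itga7 the exceptions were replicate 2 of sgBACH1_siFEM1B, replicates 1 and 3 of sgCTRL_siFEM1B and replicate 3 of sgCTRL_siCTRL (adjusted p between 0.0508 and 0.0788 without any other). For Lamb1 they were replicate 2 of sgBACH1_siFEM1B, replicates 1 and 3 of sgCTRL_siFEM1B and replicate 2 of sgCTRL_siCTRL (0.0556 to 0.117). For Col6a3 they were replicate 2 of sgBACH1_siFEM1B, of sgBACH1_siCTRL and of sgCTRL_siCTRL and replicate 3 of sgCTRL_siFEM1B (0.0530 to 0.131). For Col11a1 they were replicate 2 of sgBACH1_siFEM1B and of sgBACH1_siCTRL and replicate 1 of sgCTRL_siFEM1B (0.0517 to 0.141), and for Col5a3 replicate 2 of sgBACH1_siFEM1B (0.0518 to 0.113). Col5a3 passed the filter through sgBACH1_siCTRL, so its call is no separate support. The calls of Lamb1 (-0.24, adjusted p = 0.0561) and Col11a1 (-0.52, adjusted p = 0.0578) also ended with the chromosome medians removed, in limma's test. The interaction medians of chromosomes 12 and 3, which hold these genes, were 0.0021 and 0.0204. What the change of test did by itself was not tested. The lower value in sgBACH1 cells includes genes that rose in sgCTRL cells alone at the threshold used (Lamb3, Itga2, Col7a1) and a gene that changed in opposite directions (Itgb1).

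Other matrix genes and receptors gave the wider setting. Of 20 tested genes of other matrix and basement membrane proteins, 1 was higher and 12 lower with siFEM1B in sgBACH1 cells and likewise 1 higher and 12 lower in sgCTRL cells, with medians of -0.46 and -0.44. Over all genes, 21.9% were higher and 19.8% lower in sgBACH1 cells, and 22.1% higher and 22.9% lower in sgCTRL cells. These were opposite in sign to the median of the 49 genes in sgCTRL cells. Thbs1, a matrix glycoprotein of the thrombospondin family, averaged 40.2 CPM in sgBACH1_siFEM1B and 109 CPM in sgBACH1_siCTRL (-1.44 ± 0.16, adjusted p = 9.98e-07), and 68.9 CPM in sgCTRL_siFEM1B and 146 CPM in sgCTRL_siCTRL (-1.09 ± 0.16, adjusted p = 1.34e-05). Ctgf, a matricellular growth factor, averaged 76.6 and 220.1 CPM in sgBACH1_siFEM1B and sgBACH1_siCTRL (-1.52 ± 0.17, adjusted p = 6.38e-07), and 111 and 248.9 CPM in sgCTRL_siFEM1B and sgCTRL_siCTRL (-1.16 ± 0.16, adjusted p = 9.11e-06). Between the lines, 8 of the 20 were higher and 4 lower under control siRNA, and 9 higher and 6 lower under siFEM1B, beside 24.2% and 26.3% of all genes under control siRNA and 28.2% and 26.4% under siFEM1B. Smoc2, a secreted relative of Sparc, averaged 19.4 CPM in sgBACH1_siCTRL and 0.0324 CPM in sgCTRL_siCTRL. The second value is below that of 1 count in a library, so the pair is given as levels only.

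Of 18 tested matrix proteases and inhibitors, 4 were higher and 9 lower in the knockout line under control siRNA, and 0 higher and 12 lower under siFEM1B, beside 24.2% and 26.3% of all genes under control siRNA and 28.2% and 26.4% under siFEM1B. With siFEM1B, 2 of the 18 were higher and 3 lower in sgBACH1 cells, and 8 higher and 4 lower in sgCTRL cells, beside 21.9% and 19.8% of all genes in sgBACH1 cells and 22.1% and 22.9% in sgCTRL cells. In sgCTRL cells Plau, the urokinase plasminogen activator, averaged 57.7 CPM with siFEM1B and 23.4 CPM with control siRNA (1.30 ± 0.10, adjusted p = 8.88e-09). Of 15 other matrix receptors, 7 were higher and 5 lower in the knockout line under control siRNA, and 8 higher and 5 lower under siFEM1B, beside the same shares of all genes as for the proteases. Sdc3, a cell surface proteoglycan, averaged 167 CPM in sgBACH1_siCTRL and 15.9 CPM in sgCTRL_siCTRL (3.39 ± 0.11, adjusted p = 2.23e-15).

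Inside the cell, integrins connect to actin through focal adhesion proteins. Of 25 such genes, 9 were higher and 8 lower in the knockout line under control siRNA, and 8 higher and 9 lower under siFEM1B, beside 24.2% and 26.3% of all genes under control siRNA and 28.2% and 26.4% under siFEM1B. Tln2, a talin that activates integrins, averaged 9.46 CPM in sgBACH1_siCTRL and 0.435 CPM in sgCTRL_siCTRL (4.40 ± 0.25, adjusted p = 1.73e-11). The second level rests on few counts, since 1 count was worth 0.0455 to 0.0501 CPM in sgCTRL_siCTRL, so the difference describes levels. Fermt2, the kindlin that acts with talin, averaged 115 and 58.2 CPM in the same groups (0.98 ± 0.08, adjusted p = 3.62e-09). With siFEM1B, 10 were higher and 6 lower in sgBACH1 cells, and 9 higher and 5 lower in sgCTRL cells, beside 21.9% and 19.8% of all genes in sgBACH1 cells and 22.1% and 22.9% in sgCTRL cells. Parva, a linker of integrins to actin, averaged 87.5 and 135 CPM in sgBACH1_siFEM1B and sgBACH1_siCTRL (-0.62 ± 0.05, adjusted p = 3.52e-08) and 81.6 and 135 CPM in sgCTRL_siFEM1B and sgCTRL_siCTRL (-0.73 ± 0.05, adjusted p = 3.58e-09). Ptk2, the focal adhesion kinase, fell likewise, by -0.57 ± 0.05 in sgBACH1 cells (adjusted p = 8.02e-08) and -0.53 ± 0.05 in sgCTRL cells (adjusted p = 1.30e-07). Of 5 tested hemidesmosome and anchoring genes, 1 was higher and 1 lower in the knockout line under control siRNA, and 2 higher and 2 lower under siFEM1B. Pkp1, a desmosomal plaque protein, averaged 149 CPM in sgBACH1_siCTRL and 28.2 CPM in sgCTRL_siCTRL (2.40 ± 0.17, adjusted p = 5.07e-10).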

How the data were processed

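The 12 RNA libraries of KP cells were made with a stranded mRNA kit, per the labels' protocols. The authors deposited raw counts, 1 whole number for each gene symbol and library. Tools named in the submitters' processing notes, with no role, are featureCounts 1.6.4, DESeq2 1.26.0, SAMtools 1.9 and Subread, and the build is mm10. Annotation and strand setting: not given in the sources used here. Libraries held 16539168 to 22196999 counts, so that 1 count was worth 0.0446 to 0.0603 CPM.

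All 12 libraries were fitted in 1 model with a mean per group (8 residual degrees of freedom) in edgeR 4.0.16 (limma 3.58.1, R 4.3.3), after filterByExpr with a minimum count of 10 (13281 genes) and TMM scaling. CPM use TMM-scaled totals. Standard errors were derived from each log2 fold change and its F statistic. The code was tested on simulated data. Alternatives were DESeq2 1.42.0, its size factors, no filter, a fit to the groups compared, a replicate block, removal of each chromosome's median, and leaving out each library. The chromosome medians were removed from log2 CPM with a prior count of 2, and those values were tested with limma, not edgeR. Replicate numbers did not pair libraries (same-number correlations of -0.115 to 0.0788). No pair of libraries of the same group held identical values (chi-square per degree of freedom 2.50 to 13.7).

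The genes and the pathway lists were chosen with earlier results of these data known. All members could be named, but 1 member and 1 gene of a pathway list are not reported here; both are in the counts. Given in full were the collagen processing genes, the 3 called members of a class with the largest change in a comparison and a mean of at least 1 CPM, the 2 most abundant members of each class, and up to 3 genes of each pathway list by p. Coordinates are RefSeq genes on GRCm38.p6.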

Additional observations from a re-analysis of the deposited data

Results flagged for a closer look

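For the genes given here the effect of siFEM1B differed between the lines by edgeR's test of the interaction, the log2 siRNA effect in sgBACH1 cells minus that in sgCTRL cells, which is why they are listed. The value was -0.99 for Itga2, -0.79 for Lamb3, -0.51 for Col7a1 and -0.34 for Itgb1, whose calls held without any single library. It was -0.81 for Itga7 (adjusted p = 0.0275), -0.26 for Lamb1 (0.0362), -3.00 for Col5a3 (0.0455), -0.52 for Col11a1 (0.0466) and -0.95 for Col6a3 (0.0468). These 5 calls ended without most single libraries: 8 of the 12 for Itga7, Lamb1 and Col6a3, 9 for Col11a1 and 11 for Col5a3. Col5a3 rests on 25 counts summed over sgBACH1_siFEM1B, 44 over sgBACH1_siCTRL, 16 over sgCTRL_siFEM1B and 3 over sgCTRL_siCTRL. It passed the filter through sgBACH1_siCTRL, where it was highest, so its adjusted p is no separate support. Its value was -1.94 with the chromosome medians removed on log2 CPM, while the interaction median of its chromosome 9 was 0.0184. With the chromosome medians removed the calls of Lamb1 and Col11a1 also ended (adjusted p = 0.0561 and 0.0578 in limma's test). What the change from edgeR to limma did by itself was not tested.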

How the results depend on the processing

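The counts of called genes in the 4 comparisons between groups stayed within 1.5 times the reported ones under every alternative run. The interaction count of 10 did not: it was 16 with DESeq2 size factors, 16 with DESeq2's Wald test and 16 without the filter on low counts, and lay between 5 and 17 when single libraries were left out. It was 5 without replicate 1 or 3 of sgBACH1_siFEM1B, replicate 1 or 3 of sgBACH1_siCTRL, replicate 2 of sgCTRL_siFEM1B or replicate 1 of sgCTRL_siCTRL, 17 without replicate 2 of sgBACH1_siFEM1B and 16 without replicate 3 of sgCTRL_siFEM1B. The interaction could not be fitted to fewer than all groups. The cause was not tested. Among called values of the 49 genes, 1 changed sign under the alternatives run, that of Lamb1 between sgBACH1_siCTRL and sgCTRL_siCTRL, -0.13 as reported and 0.11 with the chromosome medians removed. Replicate numbers did not pair the libraries. With the numbers as a replicate block, 27 genes were called between the lines under control siRNA, 38 under siFEM1B, 23 for the siRNA in sgCTRL cells, 15 in sgBACH1 cells and 7 for the interaction. Calls held without any single library for 24 of 31, 31 of 38, 15 of 24, 12 of 16 and 5 of 10 genes in the comparisons between lines under control siRNA and under siFEM1B, the siRNA comparisons in sgCTRL and in sgBACH1 cells, and the interaction. Depth limits Creb3l1, Col1a2, Col5a3, Col9a3, Col11a2, Col12a1, Col16a1, Lama3, Itgae, Itgb2, Itgb6 and Itgb8, which had fewer than 10 counts in at least 1 library.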
